A study of Mus musculus with 20 samples.

Results

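This comparison asked which genes differed at 120 h between gastruloids grown by the published gastruloid protocol (Gastruloid) and structures embedded in Matrigel (TLSMG). The 3 TLSMG and 3 Gastruloid bulk RNA libraries were taken by their group labels, 6 of the 15 bulk libraries and 6 of the 20 samples of the series. Both groups were grown from mouse embryonic stem cells of strain F1G4, with 2 fluorescent histone reporters, T::H2B-mCherry and Sox2::H2B-Venus. In both, feeder-freed cells were left to aggregate for 48 h and were then pulsed with CHIR99021 at 3 µM, which switches on the WNT pathway. The Gastruloid labels name no Matrigel, and the concentration and the time of embedding in TLSMG are not given in the sources used here. Each library held 6 pooled structures, and structures with an asymmetric pole were picked, so the values describe picked structures. The labels call the 3 libraries of a group biological replicates. One reporter line was used, so nothing here shows how other lines respond.

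Gastruloids are aggregates of embryonic stem cells that elongate and form derivatives of the germ layers along a head-to-tail axis without extraembryonic tissue. Matrigel is an extract of basement membrane, rich in laminin, collagen IV, nidogen and perlecan, that also carries growth factors. Trunk-like structures grown in it form segmented somites beside a neural tube. The trunk mesoderm of an embryo also gives rise to blood vessels, whose endothelial cells arise under the transcription factor Etv2 and the VEGF receptor Kdr. In a bulk sample, fewer cells of a type and less RNA per cell cannot be told apart, and this holds for every gene below.

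The values are TPM (an estimate of transcript abundance), which correct for transcript length and add up to the same total in each library. Log2 differences are TLSMG minus Gastruloid on the log2(TPM + 1) scale, and fold changes are ratios of the mean TPM of 3 libraries. Per-library values are given in the order of replicates 1, 2 and 3. The libraries of one group correlated with each other at r = 0.9869 to 0.9878 in Gastruloid and 0.9877 to 0.9893 in TLSMG across genes, and at 0.965 to 0.9749 between the groups. Relative depth was 3.28 to 4.61 in Gastruloid and 3.78 to 6.84 in TLSMG (coverage per unit of FPKM), deepest in TLSMG replicate 3, and the ranges overlap. With no read counts in the tables, the depth behind a single gene is unknown.

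The whole distribution of TPM was shifted. Of 14290 genes with a mean of at least 1 TPM, 5622 (39.3%) had an adjusted p under 0.05 in limma, 4497 (31.5%) higher and 1125 (7.87%) lower in TLSMG, and the median gene differed by 0.134. Median-of-ratios scaling, which sets the typical gene to no difference, gave 2763 higher and 2594 lower with a median of -0.02. The differences also followed base composition, with a correlation of -0.41 with GC content across genes. Among the 1446 genes with the least GC (median 39.8%) the median log2 difference was 0.54 in TPM, 0.38 after scaling and -0.02 after a correction for GC content and length. Among the 1398 with the most GC (median 60.1%) it was -0.04, -0.20 and -0.03. The corrected fit gave 1781 higher and 1503 lower.

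**Figure D1:**
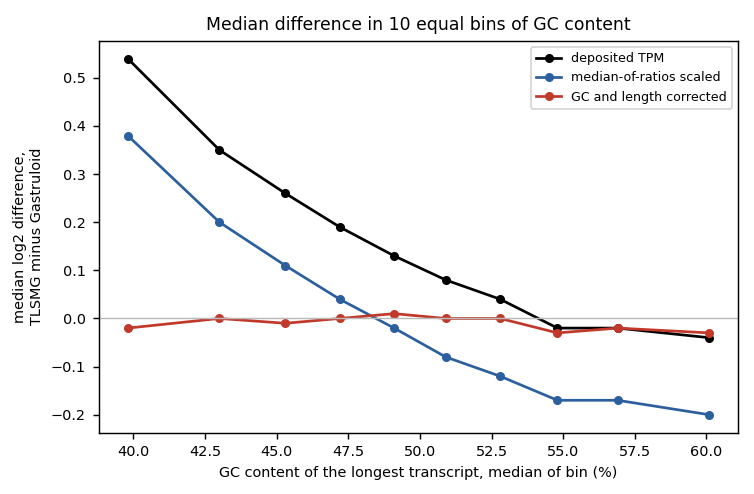
Median log2 difference, TLSMG minus Gastruloid, in 10 equal groups of genes ordered by GC content (x axis, percent), for the deposited TPM, the scaled TPM and the GC- and length-corrected TPM. The first 2 lines fall from left to right, from 0.54 to -0.04 and from 0.38 to -0.20, and the corrected line stays between -0.03 and 0.01.

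A gene is therefore said to have risen or fallen below only when limma gave an adjusted p under 0.05 in the same direction in all 3 fits, on deposited, scaled and corrected values. By this rule 2089 genes (14.6%) changed, 1383 (9.68%) higher and 706 (4.94%) lower in TLSMG. Each count of risen or fallen genes in a list below is to be read against these shares. Without each of the 6 libraries in turn, 1016 genes (7.11%) were called every time, of which 701 (4.91%) rose and 315 (2.2%) fell, and a gene named below as risen or fallen is one of these unless its paragraph says otherwise. Where leaving out 1 library ended a call, that library is named with the leave-out p, the largest adjusted p of the 3 limma fits without it. A log2 difference of at least 1 in all 3 fits was reached by 167 risen genes (1.17%) and 60 fallen genes (0.42%). The endothelium list of 32 genes held 25 of those 167 and none of those 60. For reference, the libraries of the groups did not overlap for 7471 genes (52.3%), so non-overlap is given below only as a description. Exons of Apela, Egfl7, Ramp2, Rasip1 and Sox1 overlap those of another gene on the same strand, and their values are uncertain. The libraries were stranded, but whether the authors' quantification used the strand is not given in the sources used here. The values of genes that overlap an exon on the other strand are therefore uncertain too. Among the genes below these are Acvrl1, Angpt1, Bmp4, Cd34, Chrd, Col4a1, Ctgf, Ddr1, Ebf2, Ecscr, Emx2, Eng, Ephb4, Evx1, Fn1, Fst, Hes5, Hes7, Hoxa4, Hoxb5, Irx3, Itga8, Mfap4, Myh7, Nid1, Nkx1-2, Nos3, Pax1, Pax9, Pou5f1, Runx1, Sox17, Sox21, Stab1, Tagln, Tmem255a, Tpm4 and Zic1.

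**Figure D2:**
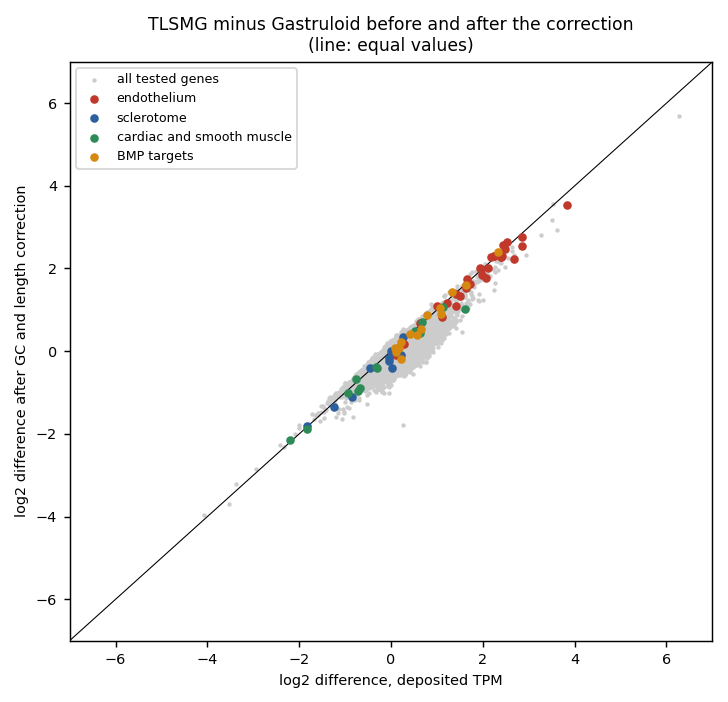
Log2 difference of each tested gene in deposited TPM (x axis) against the same after GC and length correction (y axis), with all genes in grey and 4 gene lists in colour. Endothelial genes lie near the diagonal, with medians of 1.97 and 2.00 on the 2 axes.

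The share of TPM from the mitochondrial genome was 0.378%, 0.358% and 0.438% in Gastruloid and 1.52%, 1.00% and 1.04% in TLSMG. The groups did not overlap, with an exact two-sided permutation p of 0.1, the smallest that 3 libraries against 3 can give. Small and structural RNAs took 5.72%, 4.89% and 4.87% in Gastruloid and 3.97%, 3.51% and 2.29% in TLSMG (exact permutation p = 0.1). These 2 shares moved with the groups. Their part in the gene results was not tested. Nuclear protein-coding genes held 80.8% to 81.6% of TPM in Gastruloid and 80.7% to 85.3% in TLSMG, which overlap.

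Endothelial genes rose the most. Of 31 tested genes of the endothelium list, 27 rose and none fell, against 9.68% and 4.94% of all genes. The list's median log2 difference was 1.97 in TPM, 1.84 after scaling and 2.00 after correction, where the median of all tested genes was 0.134, -0.019 and -0.007. Summed over the list, the level was 154, 159 and 165 TPM in Gastruloid and 741, 685 and 630 TPM in TLSMG. Leaving out any 1 library kept 25 or 26 of the 27 calls. TLSMG replicate 1, which had the highest sum, also had the highest mitochondrial share, and the part of that share in the result was not tested.

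Kdr (ENSMUSG00000062960.10, GRCm38 chromosome 5, 75932827 to 75978458), the main signalling receptor for VEGF and an early mark of the endothelial lineage, measured 4.59, 5.89 and 6.93 TPM in Gastruloid and 106, 94.8 and 85.2 TPM in TLSMG. Every TLSMG library was far above every Gastruloid library, and the spread within each group was small beside the gap. The ratio of means was 16.4, and the log2 difference of 3.83 (SE 0.36) passed in limma at an adjusted p of 2.44e-05. Kdr was the largest rise among the named genes in TPM. Flt1, the VEGF receptor that also acts as a decoy, measured 0.967, 1.26 and 1.61 TPM against 9.27, 8.56 and 7.76 TPM (log2 difference 2.07). Flt4, the receptor for VEGF-C, measured 3.14, 3.39 and 3.23 TPM against 22, 19 and 21.5 TPM (2.36). All 3 VEGF receptors were thus low in every gastruloid library and high in every Matrigel library.

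The transcription factors that specify endothelial cells were among the risen genes. Etv2, the ETS factor at the head of the lineage, measured 2.42, 2.8 and 4.1 TPM in Gastruloid and 22.3, 18.9 and 21.5 TPM in TLSMG, a 6.72-fold ratio (log2 difference 2.43, adjusted p 1.34e-05 in limma). Erg, an ETS factor that maintains endothelial identity, measured 0.886, 1.49 and 1.24 TPM against 14.8, 15.3 and 14.1 TPM, a 12.2-fold ratio. Tal1, which acts in the common progenitors of blood and endothelium, measured 0.893, 0.559 and 0.835 TPM against 5.77, 5.69 and 6.2 TPM. None of these 3 genes had overlapping libraries. Its partner Lmo2 measured 5.65, 4.1 and 3.92 TPM against 20.8, 34.8 and 21.5 TPM, and Gata2 0.493, 0.976 and 0.549 TPM against 4.83, 4.26 and 3.51 TPM. Sox7 and Sox18, SOXF factors of vascular development, had log2 differences of 2.11 and 2.17. Sox17, of the same family, measured 1.47, 1.46 and 1.85 TPM against 8.11, 3.88 and 3.94 TPM and did not pass (adjusted p 0.0645 in limma on TPM). Fli1 measured 7.16, 8.01 and 7.89 TPM against 19.5, 16.9 and 16.9 TPM. It passed with all 6 libraries but not when any 1 of them was left out (leave-out p 0.0507 to 0.079).

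Genes of endothelial junctions and surface followed the same order. Cdh5, the cadherin of endothelial junctions, measured 6, 5 and 5.95 TPM in Gastruloid and 40, 34 and 30.4 TPM in TLSMG, a 6.16-fold ratio. Cldn5, a tight junction protein of vessels, measured 9.19, 10.5 and 10.1 TPM against 69, 59.8 and 58.3 TPM. Emcn, a sialomucin of veins and capillaries, measured 2.28, 1.8 and 2.65 TPM against 26.1, 17.8 and 16.5 TPM. For these 3 surface proteins the lowest TLSMG library stood far above the highest Gastruloid library. Tek, the receptor for angiopoietins, measured 1.56, 1.97 and 2.07 TPM against 20.6, 20.4 and 17.6 TPM, a 10.5-fold ratio, and its relative Tie1 had a log2 difference of 2.39. Plvap, Esam, Ecscr, Rasip1, Icam2, Mmrn2, Robo4, Nos3, Eng, Cd34 and Hhex rose too, with log2 differences from 1.41 to 2.48. Ramp2 measured 32.7, 30.1 and 30.7 TPM against 57, 66.5 and 67.8 TPM. It kept its call without TLSMG replicate 1 (leave-out p 0.0493) and lost it without each of the other 5 libraries (leave-out p 0.0557 to 0.0717).

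Not every endothelial gene moved. Pecam1, an adhesion protein of endothelium and of some stem cells, measured 3.09, 3.56 and 5.16 TPM in Gastruloid and 6.49, 3.83 and 4.74 TPM in TLSMG, and the groups overlapped (adjusted p 0.27 in limma). Notch4 overlapped as well, with 4.25, 4.03 and 2.09 TPM against 4.82, 3.53 and 2.81 TPM. Egfl7 measured 28.4, 32.1 and 28.5 TPM against 51.1, 50.1 and 38.6 TPM and missed the threshold only after scaling (adjusted p 0.0577). Dll4, a Notch ligand of arterial and sprouting endothelium, was below the expression filter and was not tested. It measured 0.256, 0.487 and 0.431 TPM against 1.71, 1.83 and 1.7 TPM, higher in every TLSMG library. Genes of blood cells stayed near 0. Of 11 blood genes only Runx1 passed the filter, at 1.32, 1.02 and 2.06 TPM against 0.635, 0.601 and 0.93 TPM, and it passed in 1 fit alone (adjusted p 0.0217 after correction). The blood list summed to 2.31, 2.30 and 3.23 TPM in Gastruloid and 2.65, 2.13 and 3.19 TPM in TLSMG.

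**Figure D3:**
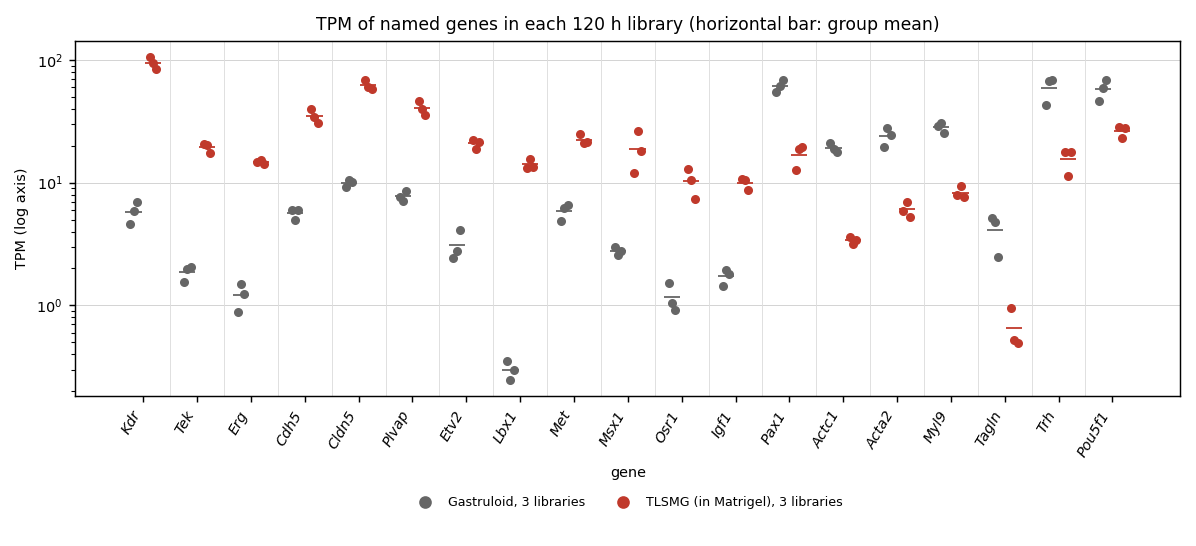
TPM of named genes in each of the 3 Gastruloid and 3 TLSMG libraries, on a log axis, each point a library and each bar the mean of a group. Kdr, Tek, Erg and Cdh5 show the endothelial rise, Lbx1 a ratio of 47.1, and Actc1, Acta2, Myl9, Tagln, Trh and Pou5f1 the falls.

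The receptors rose and most of their ligands did not. Of 15 tested genes of VEGF and angiopoietin signalling, 9 rose and 1 fell, against 9.68% and 4.94% of all genes. Of the 9, 4 (Kdr, Flt1, Tie1 and Tek) are also in the endothelium list. Vegfa, the main ligand of Kdr, measured 16.8, 17.5 and 18.6 TPM in Gastruloid and 18.8, 18.6 and 19.6 TPM in TLSMG, with a log2 difference of 0.10 (standard error 0.12, adjusted p 0.519 in limma). Vegfb measured 113, 107 and 115 TPM against 96.4, 111 and 118 TPM. Neither ligand passed on TPM. Vegfc, the ligand of Flt4, did rise, from 4.94, 4.31 and 5.07 TPM to 12.7, 12.6 and 12.4 TPM, a 2.63-fold ratio. Aplnr, the apelin receptor of vascular progenitors, measured 8.18, 10.6 and 11.6 TPM against 55.6, 45.9 and 42 TPM. Of its ligands, Apln overlapped between the groups, at 7.09 to 8.76 TPM and 7.21 to 7.54 TPM, and Apela was the member that fell, from 40.6, 43.3 and 31 TPM to 21.3, 23.5 and 22.7 TPM. Angpt1, a Tek ligand, had a log2 difference of 1.30 but lost its call without Gastruloid replicate 1 or 3 or TLSMG replicate 1 (leave-out p 0.0524 to 0.0678).

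Of the semaphorin receptors that vessels share with axons, Plxnd1 and Nrp2 rose, and Nrp1 did not pass in all 3 fits. Plxnd1, a plexin of endothelial cells, measured 17.7, 18.9 and 21.2 TPM in Gastruloid and 81.4, 79.3 and 71.5 TPM in TLSMG, a 4.02-fold ratio. Nrp2, a co-receptor for VEGF-C and semaphorins, measured 46.4, 46.5 and 57.7 TPM against 95.5, 103 and 111 TPM. Nrp1 measured 24.5, 24.9 and 28.8 TPM against 54.8, 52.2 and 49.5 TPM. It passed on TPM but not after scaling or after correction (adjusted p 0.0937 and 0.264 in limma). The axon guidance list otherwise had 2 fallen genes among 24 tested, the chemokine receptors Cxcr4 and Ackr3, with log2 differences of -0.58 and -0.78. In the list of cadherins, Eph receptors and ephrins 2 of 24 rose, near the share of all genes (9.68%). These were Ephb4, a receptor of veins, at 0.43, and Efna1 at 0.53. Ephb4 lost its call without Gastruloid replicate 1 or 2 or TLSMG replicate 1 (leave-out p 0.0562 to 0.0851), and Efna1 without each of the 6 libraries (leave-out p 0.0561 to 0.17).

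Genes outside the endothelium list stood among the 12 largest rises. Stab1, a scavenger receptor of sinusoidal endothelium, measured 2.35, 1.95 and 3.18 TPM against 25.3, 23.3 and 21.9 TPM. Gimap6 measured 0.774, 1.11 and 0.93 TPM against 11.5, 11.3 and 10.1 TPM. Hapln1, a link protein of the hyaluronan matrix, measured 2.58, 1.83 and 2.78 TPM against 30.2, 24.1 and 21.3 TPM. In these 3 genes the ratio of means was 9.42, 11.7 and 10.5, and no libraries overlapped. Tmem255a measured 1.01, 1.53 and 1.67 TPM against 15.3, 11.9 and 15.6 TPM. Zbed6, Gm20716 and Gm45837 were also among the 12, but their exons overlap those of other genes and their values are uncertain. Zbed6 also lost its call without Gastruloid replicate 2 or 3 or TLSMG replicate 1 or 2 (leave-out p 0.105 to 0.122). Calcrl, the receptor that Ramp2 turns into an adrenomedullin receptor, and Acvrl1, an endothelial BMP receptor, were chosen after their values were seen. Calcrl measured 4.58, 5.44 and 4.82 TPM against 23.9, 20.9 and 19.3 TPM, and Acvrl1 2.85, 2.55 and 2.77 TPM against 8.64, 9.14 and 11.2 TPM. The GC and length correction lowered the log2 difference of Calcrl from 1.91 to 1.21 and that of Hapln1 from 2.94 to 2.32.

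**Figure D4:**
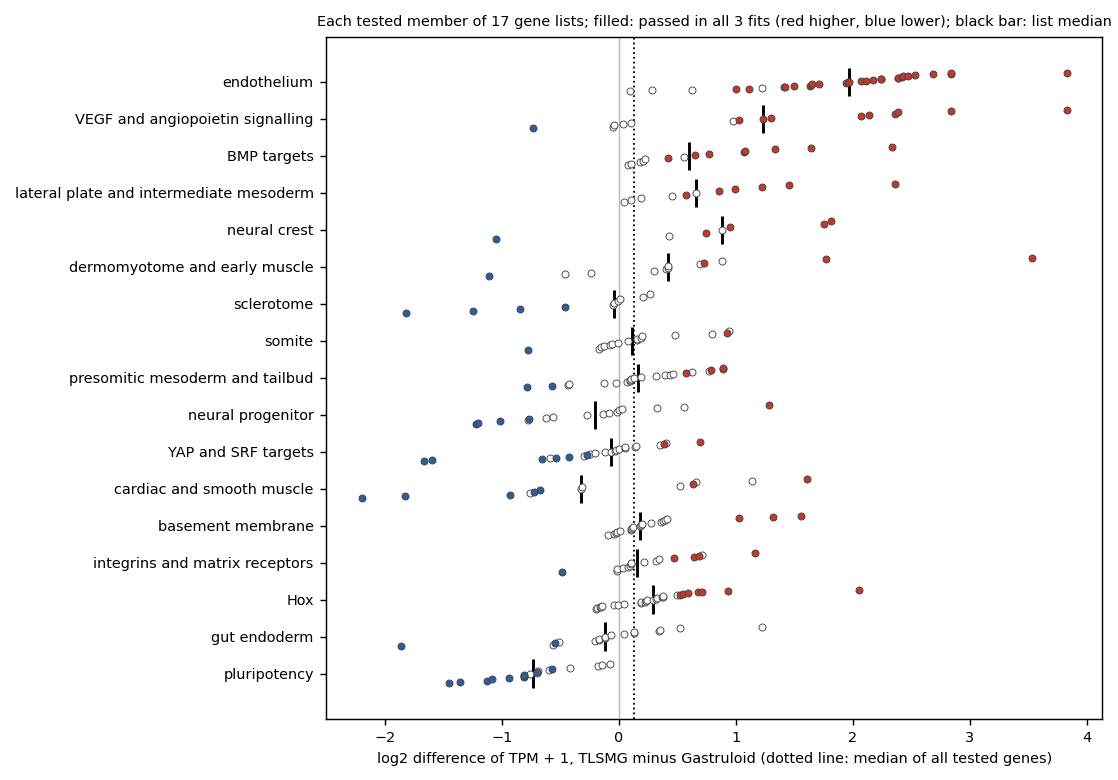
Log2 difference in TPM, TLSMG minus Gastruloid, of every tested gene in 17 of the gene lists, with filled points for genes that passed in all 3 fits (red higher, blue lower), a bar at each list's median and a dotted line at the median of all tested genes (0.134). The endothelium list stands apart at a median of 1.97, and the pluripotency list lies lowest of those drawn, at -0.73.

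The share of somite genes called was near that of all genes (14.6%). In an embryo the somite splits into the dermomyotome, source of dermis and muscle, and the sclerotome, source of vertebrae and ribs. Of 16 tested somite genes 1 rose and 1 fell, with a median of 0.12. Meox1, a homeobox gene of all somites, measured 554, 535 and 608 TPM in Gastruloid and 533, 524 and 572 TPM in TLSMG, which overlap (log2 difference -0.06, adjusted p 0.624 in limma). Uncx, which marks the posterior part of each somite, measured 17.2, 18.2 and 27.5 TPM against 18.5, 21.2 and 31.2 TPM, and Foxc2 109, 117 and 138 TPM against 119, 110 and 132 TPM. These 3 somite genes overlapped between the groups. Meox2 rose, from 14.1, 16.3 and 17 TPM to 28.6, 29.1 and 35.1 TPM. Tcf15, which keeps somites epithelial, measured 233, 256 and 292 TPM against 127, 135 and 201 TPM, and its call was lost without each library except TLSMG replicate 3 (leave-out p 0.0514 to 0.127).

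Among genes called in all 3 fits and above 0 TPM in Gastruloid, the largest ratio of means belonged to a gene of migrating muscle precursors. Lbx1 (ENSMUSG00000025216.9, chromosome 19, 45232684 to 45235812), a homeobox gene of muscle precursors that leave the somite for the limb and of dorsal spinal cord neurons, measured 0.352, 0.248 and 0.3 TPM in Gastruloid and 13.1, 15.7 and 13.5 TPM in TLSMG. All Gastruloid libraries were under 1 TPM and all TLSMG libraries above 13 TPM. The ratio of means was 47.1, and the log2 difference of 3.54 (SE 0.15) had an adjusted p of 2.89e-08 in limma. Met, the receptor that releases these precursors from the somite, measured 4.84, 6.24 and 6.57 TPM against 24.8, 21 and 21.4 TPM, a 3.81-fold ratio. Six4 measured 11.8, 12.6 and 13 TPM against 20.5, 21.2 and 22.3 TPM. Pax3, upstream of both Lbx1 and Met in the embryo, measured 23, 20 and 31.3 TPM against 28.3, 44 and 51.1 TPM, overlapped and did not pass after scaling (adjusted p 0.0526). Eya2, a transcriptional cofactor, fell from 14.6, 13.7 and 18.7 TPM to 5.82, 5.84 and 8.62 TPM. In all, 3 of 12 tested dermomyotome and early muscle genes rose and 1 fell, against 9.68% and 4.94% of all genes. Myf5, Myf6, Myod1 and Myog, the factors that commit cells to muscle, were below the filter.

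Sclerotome genes fell in part. Pax1 (ENSMUSG00000037034.16, chromosome 2, 147361925 to 147393295), a paired-box gene of the ventral somite, measured 55.2, 61 and 69 TPM in Gastruloid and 12.6, 18.7 and 19.6 TPM in TLSMG. The groups did not overlap, and the log2 difference was -1.82 (SE 0.14, adjusted p 8.59e-06 in limma), a 3.64-fold fall. An antisense gene overlaps exons of Pax1 on the other strand. Pax9, a close relative of Pax1, measured 3.86, 3.69 and 3.18 TPM against 1.79, 1.26 and 1.61 TPM. Pax1, Pax9 and Mfap4 were among the 4 falls of 10 tested genes, none of which rose, where 4.94% of all genes fell. Mfap4 lost its call without replicate 2 or 3 of either group (leave-out p 0.0506 to 0.0689). Sox9, a driver of cartilage fate, overlapped at 18.2, 20 and 18.3 TPM against 19.6, 19.6 and 15.6 TPM. Twist1 measured 66.6, 78.9 and 80.7 TPM against 88.9, 91.2 and 91.1 TPM and did not pass.

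Among targets of BMP signalling, 8 genes rose, and ligands and antagonists gave calls in both directions. BMP ligands act through SMAD proteins, which switch on the Id genes and Msx1 and also genes for inhibitors of the pathway. Of 14 tested BMP target genes, 8 rose and none fell, where 9.68% of all genes rose. The medians were 0.60, 0.51 and 0.48 in the 3 fits, and 5 of the 8 were kept without each library in turn. Msx1 (ENSMUSG00000048450.10, chromosome 5, 37820485 to 37824583) measured 2.98, 2.56 and 2.75 TPM in Gastruloid and 11.9, 26.3 and 18.2 TPM in TLSMG. The TLSMG libraries spread widely among themselves and all lay above Gastruloid, a 6.82-fold ratio with a log2 difference of 2.33 and an adjusted p of 1.34e-05 in limma. Id1, an inhibitor of differentiation factors, measured 28.6, 29.8 and 29.4 TPM against 84.5, 76.7 and 66.1 TPM, and Id3 147, 121 and 117 TPM against 191, 256 and 214 TPM. Tbx2 rose as well, by 1.07 on the log2 scale. Gata2, which rose with a log2 difference of 1.64, is in the endothelium list too. Id2 measured 41, 64.6 and 90.5 TPM against 186, 113 and 110 TPM and lost its call without Gastruloid replicate 1 or TLSMG replicate 1 (leave-out p 0.0764 and 0.0779). Smad6, an inhibitory SMAD, and Msx2 had log2 differences of 0.42 and 0.65. Smad6 lost its call without each of the 6 libraries (leave-out p 0.0531 to 0.114), and Msx2 without each but TLSMG replicate 1 (0.062 to 0.168). Smad7 and Bambi, feedback inhibitors, did not pass, with log2 differences of 0.18 and 0.22.

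Among ligands and antagonists 2 of 17 rose and 3 fell, against 9.68% and 4.94% of all genes. Grem1, a secreted BMP antagonist, measured 0.0844, 0.148 and 0.156 TPM in Gastruloid and 4.65, 4.63 and 2.98 TPM in TLSMG, a 31.6-fold ratio of means. Nog, another secreted antagonist, measured 0.716, 0.543 and 0.537 TPM against 3.51, 3.19 and 3.29 TPM. Both were under 1 TPM in every Gastruloid library. Bmp4 overlapped, with 1.01, 1.43 and 1.78 TPM against 3.57, 1.86 and 1.68 TPM (adjusted p 0.154 in limma), and Bmp7 overlapped at 8.47 to 9.85 TPM and 8.58 to 10.1 TPM. Smoc1 fell from 136, 140 and 152 TPM to 99.5, 95.3 and 110 TPM. Chrd and Fst had log2 differences of -0.40 and -0.36. Chrd lost its call without each library but Gastruloid replicate 1 (leave-out p 0.0715 to 0.117), and Fst without Gastruloid replicate 2 or 3 or TLSMG replicate 1 or 2 (0.0685 to 0.137).

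In the list of lateral plate and intermediate mesoderm, 6 of 11 tested genes rose, against 9.68% of all genes. Osr1 (ENSMUSG00000048387.8, chromosome 12, 9570116 to 9581500), a zinc finger gene of intermediate and lateral mesoderm, measured 1.52, 1.05 and 0.915 TPM in Gastruloid and 13, 10.6 and 7.37 TPM in TLSMG, an 8.86-fold ratio. Wt1, a gene of kidney and body cavity lining, measured 1.01, 1.5 and 2.53 TPM against 5.44, 7.77 and 5.47 TPM. Lhx1, which acts in intermediate mesoderm and in neurons, measured 2.49, 2.97 and 2.96 TPM against 8.35, 7.92 and 7.41 TPM. With Emx2 (log2 difference 0.86), these made the 4 of the 6 rises that were kept without each library. Isl1 and Pax2 were the others, at 0.99 and 0.57. Isl1 lost its call without replicate 1 of either group (leave-out p 0.0533 and 0.0606), and Pax2 without each library but Gastruloid replicate 1 (0.0652 to 0.131). Hand1, listed at 0 in all 3 Gastruloid libraries, measured 0.794, 0.689 and 0.309 TPM in TLSMG and did not pass. Foxf1, of the same list, overlapped at 4.86, 6.76 and 6.02 TPM against 7.44, 4.68 and 6.29 TPM (adjusted p 0.882 in limma). Hand2, Tbx4, Tbx5 and Pitx1 were below the filter. Pax8 was below it too and was not tested, at 0.239, 0.344 and 0.0757 TPM in Gastruloid and 4.12, 3.57 and 1.57 TPM in TLSMG.

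In the neural crest list, the defining genes Sox10, Foxd3, Tfap2a and Tfap2b were below the filter, and the 4 genes that rose are also expressed in mesenchyme. Snai2, a repressor of E-cadherin, measured 2.9, 3.77 and 5.93 TPM in Gastruloid and 18.2, 16.4 and 15.8 TPM in TLSMG, a 4.0-fold ratio. Prrx1, a homeobox gene of limb and head mesenchyme, measured 1.18, 1.34 and 1.39 TPM against 9.29, 6.6 and 5 TPM. Ets1 and Snai1 rose by 0.95 and 0.75 on the log2 scale. Ednrb, the endothelin receptor of crest cells, fell, from 14.9, 5.15 and 6.37 TPM to 3.1, 4.51 and 2.62 TPM, and most of the Gastruloid mean came from replicate 1. It kept its call without that library.

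Several genes of the contractile cytoskeleton fell. Serum response factor, SRF, switches on actin and smooth muscle genes with myocardin-family partners through a short motif, the CArG box. Of 23 tested YAP and SRF target genes 2 rose and 6 fell, and of 13 tested cardiac and smooth muscle genes 2 rose and 5 fell, where 4.94% of all genes fell. The YAP and SRF list summed to 1860, 1830 and 1950 TPM in Gastruloid and 1830, 1870 and 1890 TPM in TLSMG, which overlap, and the cardiac and smooth muscle list to 68.7, 74.5 and 72.2 TPM against 43, 38.9 and 38.2 TPM, which do not. Of the 8 fallen genes of these 2 lists with a promoter sequence, 3 carry a CArG box near a RefSeq start. The others hold no match to the searched pattern in the window given below. Boxes outside that window or with a mismatch were not searched for. The 100 bases around the box, which is in capitals, are shown for the 3 genes with a match. Other members of the lists carry a box and are not among the fallen genes. Whether the box had a part in the falls was not tested. The sequences run 5′ to 3′ on the gene's strand and come from RefSeq on GRCm38.p6. They lie at chr2:114052876-114052975 (minus strand) for Actc1, chr2:156775258-156775357 (plus strand) for Myl9 and chr10:79988499-79988598 (plus strand) for Cnn2. The Actc1 stretch lies inside the gene span given below for its TPM, so its RefSeq start is not the outermost start of that span.
Actc1: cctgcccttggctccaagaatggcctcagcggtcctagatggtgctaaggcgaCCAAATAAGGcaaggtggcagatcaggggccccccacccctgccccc
Myl9: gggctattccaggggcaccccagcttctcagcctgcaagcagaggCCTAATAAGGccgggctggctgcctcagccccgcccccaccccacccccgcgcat
Cnn2: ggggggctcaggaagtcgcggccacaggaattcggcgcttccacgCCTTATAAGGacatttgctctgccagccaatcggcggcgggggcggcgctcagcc

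The box is CC, a run of A and T bases, and GG, a pattern that matches on both strands at once. It starts 47 bases before the RefSeq start of Actc1, 161 before that of Myl9 and 56 before that of Cnn2. In the window from 250 bases before to 50 after the start, 3 of the 8 fallen members with a promoter in the table held a box (37.5%). The share was 154 of 9607 (1.6%) among tested genes, 6 of 22 (27.3%) in the YAP and SRF list, 4 of 19 (21.1%) in the cardiac and smooth muscle list, 1 of 14 (7.14%) in the somite list and 0 of 18 in the endothelium list. The YAP and SRF list was drawn up as targets of SRF, and the 8 fallen members come from it and the cardiac and smooth muscle list. The shares of the 2 lists and of the fallen members therefore describe which genes were listed. Setting them beside the 1.6% of tested genes is no test of a part for SRF. A match shows letters and not binding.

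Actc1 (ENSMUSG00000068614.7, chromosome 2, 114047282 to 114053548), the actin of heart muscle and of early skeletal muscle, measured 21.2, 18.8 and 17.7 TPM in Gastruloid and 3.64, 3.14 and 3.42 TPM in TLSMG. The groups were far apart and each was tight, with a log2 difference of -2.20, an adjusted p of 1.71e-05 in limma and a 5.65-fold fall. Acta2, the actin of smooth muscle, measured 19.6, 28 and 24.7 TPM against 5.87, 7.02 and 5.27 TPM, a 3.98-fold fall. Myl9 (ENSMUSG00000067818.6, chromosome 2, 156775420 to 156781658), the regulatory light chain of smooth muscle myosin, measured 29, 30.8 and 25.6 TPM against 7.92, 9.38 and 7.62 TPM, a 3.43-fold fall with an adjusted p of 8.51e-06. None of these 3 overlapped. Tagln, an actin-binding protein of smooth muscle, measured 5.14, 4.77 and 2.47 TPM against 0.944, 0.52 and 0.492 TPM. Cnn2, a calponin, measured 83.7, 92.1 and 87 TPM against 55.8, 56.4 and 53.5 TPM, and Cyr61, a secreted YAP and SRF target, 18.5, 19.3 and 18.2 TPM against 13.1, 12.6 and 11.9 TPM. The falls of Cnn2 and Cyr61 were thus smaller, at 1.59-fold and 1.49-fold.

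The regulators moved little or were low. Srf itself measured 51.1, 55.7 and 63.1 TPM in Gastruloid and 51.7, 56 and 58.5 TPM in TLSMG, which overlap (adjusted p 0.834 in limma). Myocd, the cardiac and smooth muscle partner of SRF, fell from 1.68, 2.02 and 2.45 TPM to 0.598, 0.739 and 1.23 TPM. Tnni1 and Myh7, sarcomere genes, fell by 0.93 and 0.67 on the log2 scale. Heart transcription factors Nkx2-5, Tbx5 and Tbx20 were below the filter. Ctgf measured 16.6, 8.75 and 8.5 TPM against 6.23, 7.5 and 6.79 TPM and did not pass on TPM (adjusted p 0.0584). The 2 rises of the YAP and SRF list were those of Amotl1, which binds YAP at junctions, from 40.9, 37.9 and 45.9 TPM to 62.6, 70.2 and 70 TPM, and Tpm4, a tropomyosin, from 321, 340 and 341 TPM to 441, 439 and 432 TPM. Tagln2 and Flna had log2 differences of -0.43 and -0.27. Tagln2 lost its call without Gastruloid replicate 2 or 3 or TLSMG replicate 1 or 3 (leave-out p 0.0582 to 0.0921), and Flna without each library but Gastruloid replicate 2 (0.06 to 0.146). Mef2c, a factor of muscle and of endothelium, measured 0.897, 0.961 and 1.07 TPM against 4.64, 4.89 and 5.62 TPM (log2 difference 1.61, and 1.01 after correction) and lost its call without TLSMG replicate 3 (leave-out p 0.051). Hcn4, a pacemaker channel, had a log2 difference of 0.63, a call lost without Gastruloid replicate 2 or 3 or TLSMG replicate 1 or 2 (0.0502 to 0.0606).

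The share of the cells' own basement membrane genes called was near that of all genes (14.6%). Of 20 tested basement membrane genes 3 rose and none fell, against 9.68% and 4.94% of all genes. Lama4, a laminin chain of vessel walls, measured 0.678, 0.813 and 1.09 TPM in Gastruloid and 5.64, 4.15 and 3.72 TPM in TLSMG, a 5.24-fold ratio. Nid1, which links laminin to collagen IV, measured 6.19, 6.88 and 7.99 TPM against 20.6, 18.3 and 17.8 TPM. Hspg2, the gene of perlecan, measured 14.2, 14.5 and 17.3 TPM against 31.4, 32.8 and 32 TPM. These 3 did not overlap. The chains of laminin-111, Lama1, Lamb1 and Lamc1, had log2 differences of 0.41, 0.27 and 0.38 in TPM and of 0.11, 0.06 and 0.11 after correction, where none passed. Col4a1, the main collagen IV chain, measured 88, 90 and 116 TPM against 86.5, 107 and 124 TPM, which overlap.

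Among integrins and matrix receptors 4 of 16 rose and 1 fell, against 9.68% and 4.94% of all genes. Itga5, the fibronectin receptor chain, measured 17.5, 16.8 and 19 TPM in Gastruloid and 29.2, 28.7 and 29.5 TPM in TLSMG. Itga8, a chain of mesenchyme beside the kidney, measured 1.05, 1.34 and 1.5 TPM against 4.83, 4.21 and 3.46 TPM. Itga9 and Itgb1 had log2 differences of 0.64 and 0.47. Itga9 lost its call without Gastruloid replicate 1 or 2 or TLSMG replicate 1 or 3 (leave-out p 0.0536 to 0.0736), and Itgb1 without each library but Gastruloid replicate 2 (0.0566 to 0.155). Itga6, a laminin receptor chain, measured 44.8, 46.3 and 38.5 TPM against 49.5, 53 and 59.5 TPM and did not pass (adjusted p 0.225 in limma). The receptor Ddr1, which binds collagens, fell from 46.1, 43.1 and 42.3 TPM to 26.5, 33.7 and 33.5 TPM. In the interstitial matrix list 1 of 21 rose, Emilin1, from 28, 29.5 and 31.3 TPM to 57, 53.4 and 54.3 TPM. Its 3 falls were Col1a1, lost without replicate 2 of either group or Gastruloid replicate 3 (leave-out p 0.0508 to 0.0853), Col1a2, lost without Gastruloid replicate 2 or 3 or TLSMG replicate 1 or 2 (0.0541 to 0.168), and Fbln1, lost without Gastruloid replicate 1 or 3 or TLSMG replicate 1 or 2 (0.0723 to 0.184). Fn1 overlapped at 150, 124 and 136 TPM against 166, 139 and 189 TPM.

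Libraries of one group differed from each other in neural and tailbud genes. Gastruloid replicate 1 was highest of its group in the summed neural progenitor list, at 778 TPM against 676 and 635 TPM, and lowest in the presomitic and tailbud list, at 295 TPM against 444 and 446 TPM. TLSMG replicate 1 was lowest in the neural list, at 396 TPM against 558 and 506 TPM. Each result in these lists is therefore given with the libraries it depends on.

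**Figure D5:**
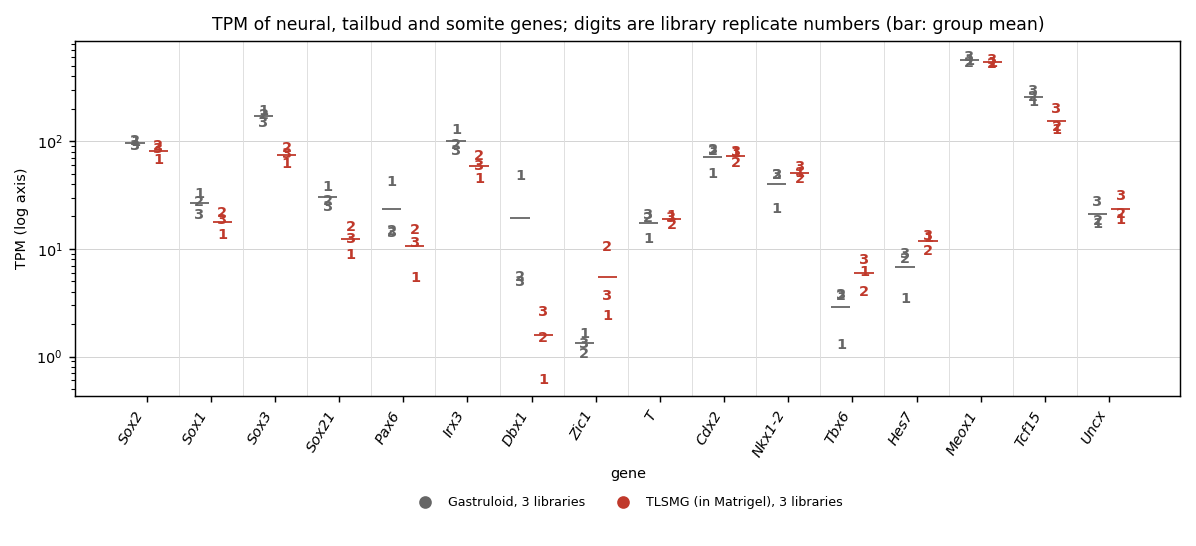
TPM of 16 neural, tailbud and somite genes in the 6 libraries, on a log axis, with each library drawn as its replicate number and the groups in separate columns. Gastruloid replicate 1 is the highest Gastruloid library for Pax6 and Irx3 and the lowest for T, Cdx2, Nkx1-2, Tbx6 and Hes7.

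Of 16 tested neural progenitor genes 1 rose and 4 fell, against 9.68% and 4.94% of all genes, and 2 of the falls were kept without each library. Sox3 (ENSMUSG00000045179.9, chromosome X, 60891366 to 60893430), a SOXB1 factor of neural progenitors, measured 191, 174 and 149 TPM in Gastruloid and 61, 86 and 75.6 TPM in TLSMG. All TLSMG libraries were below all Gastruloid libraries, a 2.31-fold fall with an adjusted p of 0.00113 in limma. Sox21 measured 37.8, 28 and 24.3 TPM against 8.8, 16.1 and 12.4 TPM, a 2.42-fold fall. Sox2, the related factor whose locus carries a reporter in this line, measured 99, 101 and 90.3 TPM against 67.4, 90.3 and 84.1 TPM and did not pass (adjusted p 0.218). Sox1 overlapped, with 32.1, 27.4 and 20.7 TPM against 13.6, 21.5 and 18.4 TPM. Pax6, a gene of the ventral and intermediate neural tube, measured 41.6, 14.8 and 14.1 TPM against 5.31, 15 and 11.3 TPM. It overlapped, and it lost its call without Gastruloid replicate 1 (leave-out p 0.19), TLSMG replicate 1 (0.177) or TLSMG replicate 3 (0.0626). Hes5, a Notch target in progenitors, was lower by a log2 difference of -0.77, a call that was lost without each library but TLSMG replicate 2 (0.0535 to 0.125). The rise was Zic1, a dorsal gene, at 1.62, 1.05 and 1.32 TPM against 2.37, 10.4 and 3.65 TPM, which lost its call without each library but TLSMG replicate 1 (0.0529 to 0.127).

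Along the dorsal to ventral axis of the neural tube, few genes passed the expression filter. Of 16 dorsal genes 9 were below it, as were 8 of 13 ventral and intermediate genes. Dbx1, a gene of intermediate progenitors, measured 47.9, 5.51 and 4.95 TPM in Gastruloid and 0.609, 1.5 and 2.61 TPM in TLSMG. The groups did not overlap, but Gastruloid replicate 1 stood far above the others of its group, and the call was lost without TLSMG replicate 1 (leave-out p 0.0554). It was the only fall among 5 tested ventral and intermediate genes. Of 7 tested dorsal genes 3 rose, Msx1, Msx2 and Zic1, described above. For these lists and the neuronal list below, the shares for all genes were 9.68% higher and 4.94% lower. Foxe3, a forkhead gene, was among the 12 largest falls with 18.3, 3.35 and 4.13 TPM against 0.579, 0.769 and 1.36 TPM, and Gastruloid replicate 1 was again the highest. Among 12 tested neuronal genes 3 rose, Ebf2, Isl1 and Lhx1, and 1 fell, Stmn3, and of these 4 Lhx1 was kept without each library. Ebf2 lost its call without TLSMG replicate 3 (leave-out p 0.0557), Isl1 as given above, and Stmn3 without replicate 1 or 2 of either group (0.0565 to 0.107). Tubb3, the neuronal tubulin, overlapped between the groups (log2 difference -0.23, adjusted p 0.324 in limma).

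In the presomitic mesoderm and tailbud list, 4 of 22 genes rose and 2 fell, against 9.68% and 4.94% of all genes. None of the 6 calls was kept without each library. T, the Brachyury gene that marks the tailbud and whose reporter this line carries, measured 12.3, 19.5 and 20.6 TPM in Gastruloid and 20.3, 16.7 and 19.4 TPM in TLSMG, which overlap (adjusted p 0.633 in limma). Tbx6, which turns bipotent progenitors into paraxial mesoderm, measured 1.28, 3.66 and 3.72 TPM against 6.16, 3.95 and 7.94 TPM. Its call was lost without Gastruloid replicate 1 (leave-out p 0.169), TLSMG replicate 1 (0.101) or TLSMG replicate 3 (0.144). Msgn1 was listed at 0, 0.167 and 0.328 TPM against 0.892, 0.823 and 1.85 TPM, and its call was lost without Gastruloid replicate 1 (0.0513) or TLSMG replicate 3 (0.0556). Cdx2 overlapped, with 50, 80.5 and 82.1 TPM against 77.6, 62.8 and 79.2 TPM. Evx1, Wnt3a, Cdx1 and Fgf4 had log2 differences of 0.79, 0.57, -0.78 and -0.57. Evx1 lost its call without Gastruloid replicate 1 or TLSMG replicate 1 or 3 (0.0503 to 0.117), Wnt3a without each library but Gastruloid replicate 2 (0.0611 to 0.104), Cdx1 without Gastruloid replicate 3 or TLSMG replicate 1 (0.06 and 0.0614), and Fgf4 without replicate 2 or 3 of either group (0.0986 to 0.114).

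Hox genes, which give trunk levels their identity, rose in 7 of 27 tested members and fell in none, where 9.68% of all genes rose. Hoxd9 measured 0.573, 1.53 and 2.16 TPM in Gastruloid and 10.1, 8.23 and 7.8 TPM in TLSMG, a 6.12-fold ratio. Hoxd8, its neighbour in the cluster, measured 4.69, 5.43 and 5.94 TPM against 10.9, 11.5 and 11 TPM. Hoxa5 measured 22.1, 21.1 and 24.2 TPM against 36.1, 38.4 and 38.2 TPM. None of these 3 overlapped. Hoxb4, Hoxb5 and Hoxa4 rose by 0.67, 0.59 and 0.55 on the log2 scale, and Hoxd1 (0.52) lost its call without replicate 1 or 2 of either group (leave-out p 0.0646 to 0.196). The 12 Hox genes below the filter all belonged to groups 10 to 13.

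Genes of pluripotent cells fell. Of 18 tested pluripotency genes 10 fell and none rose, where 4.94% of all genes fell. The medians were -0.73, -0.88 and -0.88 in the 3 fits, and 5 falls were kept without each library. The list summed to 300, 411 and 492 TPM in Gastruloid and 195, 150 and 198 TPM in TLSMG. Pou5f1 (ENSMUSG00000024406.16), the Oct4 gene, measured 46.1, 58.8 and 68.6 TPM against 28.2, 23.3 and 27.9 TPM, a 2.18-fold fall with an adjusted p of 0.00414 in limma. Dppa5a, an RNA-binding protein of stem cells and germ cells, measured 147, 207 and 244 TPM against 84.1, 63.5 and 81 TPM. Esrrb, an orphan receptor of naive stem cells, measured 6.61, 5.59 and 7.68 TPM against 3.67, 2.62 and 3.79 TPM. Gastruloid replicate 1, the lowest of its group in Pou5f1 and Dppa5a, still lay above every TLSMG library. Gdf3 and Dppa2 fell by 0.94 and 0.70 on the log2 scale. Lefty1, Utf1, Tdgf1, Zfp42 and Fgf4 had log2 differences from -1.45 to -0.57. Lefty1 lost its call without Gastruloid replicate 3 or TLSMG replicate 2 (leave-out p 0.0579 and 0.0664), Utf1 without each library but Gastruloid replicate 1 (0.0666 to 0.129), Tdgf1 and Fgf4 without replicate 2 or 3 of either group (0.0928 to 0.114), and Zfp42 without TLSMG replicate 2 (0.0526). Nanog measured 11.8, 15.9 and 18.4 TPM against 10.3, 8.63 and 10.3 TPM and did not pass on TPM (adjusted p 0.0636).

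Of 12 tested germ cell genes 4 fell and 1 rose, against 4.94% and 9.68% of all genes. Pou5f1 and Dppa5a are in both lists, and the others were Ifitm1, from 354, 292 and 317 TPM to 212, 196 and 223 TPM, and Ifitm3, at 52.9 to 68.3 TPM against 43.3 to 46.9 TPM. Ifitm3 lost its call without each library but Gastruloid replicate 2 (leave-out p 0.0622 to 0.123). Kit had a log2 difference of 0.70, a call that was lost without Gastruloid replicate 1 or TLSMG replicate 3 (0.0501 and 0.0639). Dazl and Ddx4, genes of later germ cells, were below the filter.

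Lists of other cell types that the structures could hold gave 1 or 2 calls each. Of all genes 9.68% rose and 4.94% fell. Of 17 tested gut endoderm genes 2 fell and none rose. Trh, the gene of thyrotropin-releasing hormone, measured 42.9, 67.1 and 68.2 TPM in Gastruloid and 17.8, 11.3 and 17.7 TPM in TLSMG, a 3.81-fold fall. Cldn4 had a log2 difference of -0.54, a call lost without replicate 2 or 3 of either group (leave-out p 0.0536 to 0.116). Foxa2 overlapped, at 4.38 to 4.97 TPM and 2.39 to 5.08 TPM. Of 6 tested surface or extraembryonic genes only Sox7 rose, which is also in the endothelium list, and Trp63, Elf5, Afp and Ttr were below the filter. Of 6 tested genes of feeder fibroblasts 2 fell, Col1a1 and Col1a2, whose lost calls are given above, and none rose. The feeder fibroblast list summed to 66, 73.3 and 86.4 TPM in Gastruloid and 68.9, 69.8 and 75.9 TPM in TLSMG, which overlap. Lum, Dcn, Postn and S100a4 were below the filter.

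Growth factor genes of the IGF axis and imprinted genes changed in both directions, with 6 of 19 higher and 3 lower. Of all genes 9.68% rose and 4.94% fell. Igf1 (ENSMUSG00000020053.18) measured 1.45, 1.95 and 1.8 TPM in Gastruloid and 10.7, 10.5 and 8.72 TPM in TLSMG, a 5.75-fold ratio. Its log2 difference was 2.00 in TPM and 1.23 after the GC and length correction. Dlk1, an imprinted gene of the Notch ligand family, measured 13.2, 14.6 and 24.2 TPM against 64.7, 87.8 and 59.6 TPM. Peg3 measured 137, 158 and 175 TPM against 387, 393 and 347 TPM. All 3 were apart in every library. Igfbp4, which binds IGF, measured 63.7, 37.5 and 38.6 TPM against 151, 123 and 122 TPM. Igfbp5, the most abundant binding protein, measured 708, 672 and 756 TPM against 384, 443 and 565 TPM and lost its call without Gastruloid replicate 1 or 3 or TLSMG replicate 1 or 2 (leave-out p 0.0618 to 0.0986). The calls of Igfbp2 and Ndn, at -0.67 and -0.19, were each lost without 4 libraries (0.0569 to 0.153), which left TLSMG replicates 1 and 3 for Igfbp2 and Gastruloid replicates 2 and 3 for Ndn as those that could be left out.

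The remaining pathways gave few calls, and the shares for all genes were 9.68% higher and 4.94% lower. Of 17 tested Notch genes 4 fell and none rose, among them Heyl and Mfng by 0.66 and 0.62 on the log2 scale, and 2 of the falls were kept without each library. WNT targets had 1 rise among 13, Sp5, from 2.5, 4.31 and 4.36 TPM to 7.54, 6.24 and 7.84 TPM. FGF and ERK targets had 1 rise and 1 fall among 16. Spred2 lost its call without each library but Gastruloid replicate 3 (leave-out p 0.0828 to 0.188), and Dusp14 without Gastruloid replicate 2 or 3 or TLSMG replicate 1 (0.0671 to 0.106). Hedgehog and notochord genes had 1 fall among 10, Chrd, described above. In the retinoic acid list 2 of 12 rose. Rdh10, which makes retinaldehyde, measured 6.51, 7.14 and 6.35 TPM against 21, 17 and 16.6 TPM, while Aldh1a2, which turns it into retinoic acid, overlapped at 35.5 to 45.5 TPM and 33 to 40 TPM. Sost, a secreted WNT inhibitor, and Olfm2 were among the 12 largest falls. Sost measured 18.3, 17.1 and 14.3 TPM against 4.43, 4.49 and 4.44 TPM, and Olfm2 31.5, 24.4 and 20 TPM against 6.21, 11 and 7.39 TPM.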

How the data were processed

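RNA of 6 pooled structures per library was sequenced from stranded polyadenylated libraries with paired 75 bp reads, per the labels, which state a minimum of 23.7 M fragments per sample. The submitters' processing notes name cutadapt 2.4, STAR 2.7.3a, StringTie 2.0 and mm10. The deposited TPM values, per the file headers, came from 1 gene abundance table per library. The deposited FPKM values stood in the same tables and served as an alternative, and the deposited coverage values were used for relative depth (coverage per unit of FPKM) alone. Repeated lines of a gene ID (7 to 13 per table) were summed, and 54409 of 54446 IDs matched GENCODE M21. Depth per gene is unknown without counts, so no intervals or floors were computed.

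limma 3.58.1 in R 4.3.3 was fitted to log2(TPM + 1) of all 15 libraries in 5 groups (residual degrees of freedom 10), with an intensity-dependent prior variance (trend), two-sided tests and Benjamini-Hochberg adjustment over 14290 genes at a threshold of 0.05. The second fit used median-of-ratios factors. The third removed, in each library, spline trends (5 degrees of freedom each) on GC content and length of the longest transcript, for the 14283 genes with both. The procedure was tested on simulated data. Summed TPM, promoters and figures were made in Python 3.11.15, with exact permutation tests over the 3 and 3 libraries.

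Members and lists were chosen with earlier results of these data known. Named genes are the 12 largest rises and 12 largest falls called in all 3 fits (protein-coding or with a symbol, not mitochondrial, mean of at least 5 TPM in the higher group, libraries not overlapping), up to 3 rises and 3 falls and the 2 most abundant genes of each of 39 lists, and other list members with their values, and 1 gene the rule names is not reported here. Same-numbered libraries' deviations correlated at -0.048, -0.075 and 0.032, so no pairing by replicate number was seen. These correlations cannot show whether same-numbered libraries were made together. Alternatives were another pseudocount, filter, unit, scaling, sample set, block, minimum difference and each library left out. The other 3 bulk groups helped to estimate the spread. They also entered the mean TPM of the expression filter, the median-of-ratios factors and the gene means behind the GC and length correction. Which genes were tested therefore depends on them too. The single-cell samples were not used here.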

Additional observations from a re-analysis of the deposited data

How the results depend on the processing

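On deposited TPM, 5622 genes changed, 4497 higher and 1125 lower in TLSMG. With FPKM 2710 were higher and 2705 lower, and with median-of-ratios scaling 2763 and 2594. The GC and length correction gave 3284 genes, 1781 of them higher, and the replicate block with that correction 3032, 1628 of them higher. A minimum absolute log2 difference of 1 left 436 (362 higher, 74 lower). Of the 2089 genes called in all 3 fits, it left 227 (167 higher, 60 lower). With no filter 2113 were higher in all 3 fits, and with FPKM 1164 were lower. Leaving out 1 library gave 4264 to 5173 genes on TPM (3464 to 4276 higher, 778 to 936 lower) and 1371 to 1804 in all 3 fits (890 to 1201 higher, 481 to 603 lower). The lowest counts came without Gastruloid replicate 1 (1371, with 890 higher) and, among the rises, without TLSMG replicate 3 (905). Of the 2089, between 1284 and 1626 were called again without 1 library.

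The replicate block gave 5382 genes on TPM and 1918 in all 3 fits, 1840 of them among the 2089. No pairing by replicate number was seen in the values, which cannot show whether same-numbered libraries were made together. Of 180 named genes, 175 kept their side of the threshold on TPM under the block and 5 lost it. With the block and the GC and length correction together, 163 kept it and 13 lost it, and no direction was reversed under any alternative. Alternatives chosen after seeing the data were TPM recomputed over nuclear protein-coding genes (1796 in all 3 fits, 1643 of them among the 2089) and genes with no exon overlap (1441). Median-of-ratios scaling and the correction are themselves parts of the rule of 3 fits, so they give no separate value for it. With 3 libraries a group, calls near the threshold can rest on 1 library, and genes of few TPM have no known depth.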

Other observations

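Genes of glycolysis and of the cell cycle, which no result above describes, were called about as often as all tested genes (14.6%). Slc2a1, the main glucose transporter, fell from 544, 534 and 485 TPM in Gastruloid to 271, 299 and 322 TPM in TLSMG, a 1.75-fold fall (log2 difference -0.81, adjusted p 0.000306 in limma) that was kept without each library in turn. It was the 1 fall among 28 tested genes of glycolysis and hypoxia, and 4 rose. Of these, Egln3, an oxygen sensor, measured 5.01, 5.55 and 5.73 TPM against 10.9, 10.4 and 9.29 TPM, and Hk2, a hexokinase, 28.1, 32.6 and 34 TPM against 45.5, 46.7 and 54.9 TPM. The glucose transporter was lower in every TLSMG library, and the hexokinase was higher in every one. The other 2 rises, Pdk1 and Ero1l, were not kept without each library (largest adjusted p of the 3 limma fits 0.19 and 0.0845). Idi1, an enzyme of isoprenoid synthesis, measured 28.8, 40.8 and 35.4 TPM against 130, 104 and 125 TPM. Exons of Slc2a1 and Idi1 overlap a gene on the other strand, which leaves their values uncertain. Idi1 was the only 1 of 30 cholesterol and fatty acid genes to pass in all 3 fits, where 16 passed on deposited TPM. Of 36 tested cell cycle genes 3 rose and 2 fell, and the rise of Bub1, a spindle checkpoint kinase, from 62.7, 69.9 and 78.6 TPM to 119, 114 and 120 TPM, was the only 1 of these calls kept without each library. Hmox1, a stress enzyme, rose from 22.8, 25 and 27.1 TPM to 38, 39.7 and 36.1 TPM, the 1 rise among 16 immediate early and stress genes.

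Genes of cytosolic ribosomal proteins, a class chosen after its values were seen, held 18.1%, 18.5% and 17.5% of TPM in Gastruloid and 15.0%, 14.6% and 15.7% in TLSMG. The groups did not overlap (exact two-sided permutation p = 0.1, the smallest possible). Of 80 tested genes 37 fell and 1 rose, where 4.94% of all genes fell, and the median log2 difference was -0.24. Of 13 mitochondrial protein genes 10 rose in all 3 fits, where 9.68% of all genes rose, and 5 of the 10 were kept without each library. Of the other 5, mt-Co1, mt-Co2, mt-Cytb and mt-Nd1 lost their calls without each library but Gastruloid replicate 3 (largest adjusted p of the 3 limma fits 0.0504 to 0.0964), and mt-Nd5 without Gastruloid replicate 2 (0.0565). The gene mt-Nd4 was listed at 0.586 and 0.447 TPM in Gastruloid replicates 1 and 3 against 162 TPM in replicate 2, and mt-Nd3 was listed at 0 in Gastruloid replicate 2, so both genes are uncertain.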
